A study of Ambystoma mexicanum with 8 samples.

Results

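The *lamb4*, *ptprf*, *col16a1* and *yrk* genes were followed through the first 14 days of forelimb regeneration in the axolotl, *Ambystoma mexicanum*. Each gene is represented by a Trinity component, a group of transcripts that the assembler placed together because they share sequence. Every transcript whose identifier carries the component number of 1 of the 4 genes was taken, which gave 52 of the 90099 transcripts of the table. The *lamb4* component (comp38933_c0) holds 2 transcripts, the *ptprf* component (comp40439_c0) 4, the *yrk* component (comp39498_c0) 8 and the *col16a1* component (comp41247_c0) 38. Within a component, all transcripts were taken whatever their level. The link of each gene to its component, however, rests on supplementary tables drawn up by direction of change in these libraries, as described below. The 4 genes were also picked with earlier results of the series known.

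The animals were stock axolotls with no genetic modification named in the labels, anesthetized with MS222 and amputated with scalpels at the mid-zeugopod, the middle of the lower limb segment. Tissue was collected from uninjured limbs (0 days post amputation, dpa) and at 3, 6 and 14 dpa. A polyA+ mRNA library and a small RNA library were made at each stage, 1 of each, from RNA pooled over several tissues. A pool has no replicate, so no test was possible, and every interval below is an exact 95% interval of read counting that leaves out the differences between animals.

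Laminins are trimeric proteins of the basement membrane, the sheet of matrix under epithelia and around muscle, nerve and fat, and *lamb4* encodes a laminin beta chain. Collagen XVI, the product of *col16a1*, belongs to the collagens that decorate larger collagen fibrils and is found near basement membranes in mammalian skin. *ptprf* encodes LAR, a receptor tyrosine phosphatase whose outer part resembles cell adhesion molecules and whose inner part binds scaffold proteins of the liprin group. *yrk*, the yes-related kinase first described in the chicken, belongs to the Src family of tyrosine kinases that relay signals from integrins and other adhesion receptors. After limb amputation in salamanders, wound epidermis closes over the stump before a blastema of dividing cells forms beneath it, and both steps involve remodeling of matrix and cell contacts.

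The study's target prediction paired each of these genes with 1 or more miRNAs, whose mature axolotl sequences are shown because their own courses are given below. They were read from the supplementary sequence file, 5′ to 3′ in DNA letters, with the seed, bases 2 to 8, in capitals.
miR-181b: aACATTCAttgctgtcggtgg
miR-181c: aACATTCAttgctgtcggtgggtt
miR-2184: aACAGTAAgagttaatgtgctg
miR-204: tTCCCTTTgtcatcctatgcct
miR-24: tGGCTCAGttcagcaggaacag
miR-133a: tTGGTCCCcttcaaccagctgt
The miR-181b and miR-181c entries share their seed and their first 21 bases, and miR-181c has 3 further bases at its end, so reads of the pair may be divided between them. Both were paired with *yrk*. miR-2184 was paired with *lamb4* and *ptprf*, and miR-204 and miR-24 with *ptprf*. *col16a1* was paired with miR-133, taken here as miR-133a, the entry of that name in the small RNA table and a miRNA of skeletal and heart muscle.

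Transcripts are called paired with a gene where a supplementary table links them to it. Those tables were drawn up by direction: of the 1741 transcripts listed as higher in the part held, 1732 had a log2 ratio above 0 at 6 dpa over 0 dpa and none was below -0.0016, and of the 1827 listed as lower none was above 0. Both *lamb4* transcripts and the paired transcripts of *ptprf* and *col16a1* are listed as higher and those of *yrk* as lower. Their direction at 6 dpa is therefore no finding, and their ratios at 3 and 14 dpa, which share the 0 dpa library, are not independent of the listing.

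The mRNA libraries held 15249786, 36931886, 19049794 and 18581310 reads on transcripts at 0, 3, 6 and 14 dpa. Levels are given as cpm, reads per 1000000 reads after the library sizes were scaled by TMM (trimmed mean of M values), and 3 reads correspond to 0.0862 to 0.241 cpm. A transcript or component was called higher or lower when it had at least 10 reads over the 2 libraries compared and the whole 95% interval of its log2 ratio lay past 0.58, a 1.49-fold change. Summed skeletal muscle markers (*tnnt1*, *myom3* and *myod1*) stood at 1105, 182, 29.3 and 4.41 cpm at 0, 3, 6 and 14 dpa, and the Schwann cell marker *mpz* at 1655, 95.1, 39.8 and 8.25 cpm. The 3 epidermal markers summed to 191, 92.8, 37.7 and 48.7 cpm, with *cldnb* at an entry of 0 at every stage after amputation. The other members of this sum differed, with *krt15* at 99.1, 4.25, 2.81 and 3.07 cpm and *cldni* at 66.7, 88.5, 34.9 and 45.7 cpm. The 3 blastema mesenchyme markers (*prrx1b*, *msxc* and *msxd*) summed to 119, 468, 327 and 326 cpm, while the 4 leukocyte markers took separate courses. *csf1ra* stood at 49.4, 472, 293 and 34.8 cpm, *spi1b* at 384, 223, 116 and 31.5 cpm and *cd74a* at 89.9, 92.3, 54.9 and 18.4 cpm, and *lyz* had 2.81 cpm at 0 dpa and an entry of 0 after amputation. The 2 smooth muscle markers summed to 443, 55.5, 28.7 and 34.9 cpm, and they too differed. *acta2* stood at 413, 30.7, 11.5 and 6.04 cpm and *myh11a* at 30.1, 24.8, 17.2 and 28.8 cpm. The 2 cartilage markers went against each other, with *col9a3* at 618, 42.4, 24.9 and 76.2 cpm and *col2a1b* at 3086, 9746, 5576 and 2343 cpm. Every marker was taken from the same supplementary tables and was listed there through single transcripts by direction at 6 dpa. The marker directions at that stage are therefore no finding, and the other stages share the 0 dpa library. Whether the makeup of the tissue set any ratio given below was not tested, and in pooled tissue fewer cells of a type cannot be told apart from less RNA per cell.

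The *lamb4*, *ptprf* and *yrk* components were higher at 3 dpa than at 0 dpa, and the *col16a1* component, with an interval that crossed the cut-off, was not called. Over the whole table, 11.6% of components were called higher and 14.1% lower in this comparison. At 6 dpa the same 3 components were called higher than at 0 dpa, beside 9.57% of all components (15.4% were lower). At 14 dpa only *lamb4* of the 4 was still called higher than at 0 dpa, beside 10.8% of all components (17.3% were lower). Among the 27209 components with at least 100 reads over the 4 libraries, 29.2% had their highest level at 3 dpa and 16.5% at 6 dpa. The *lamb4*, *col16a1* and *yrk* components were highest at 3 dpa, and *ptprf* at 6 dpa.

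**Figure D1:**
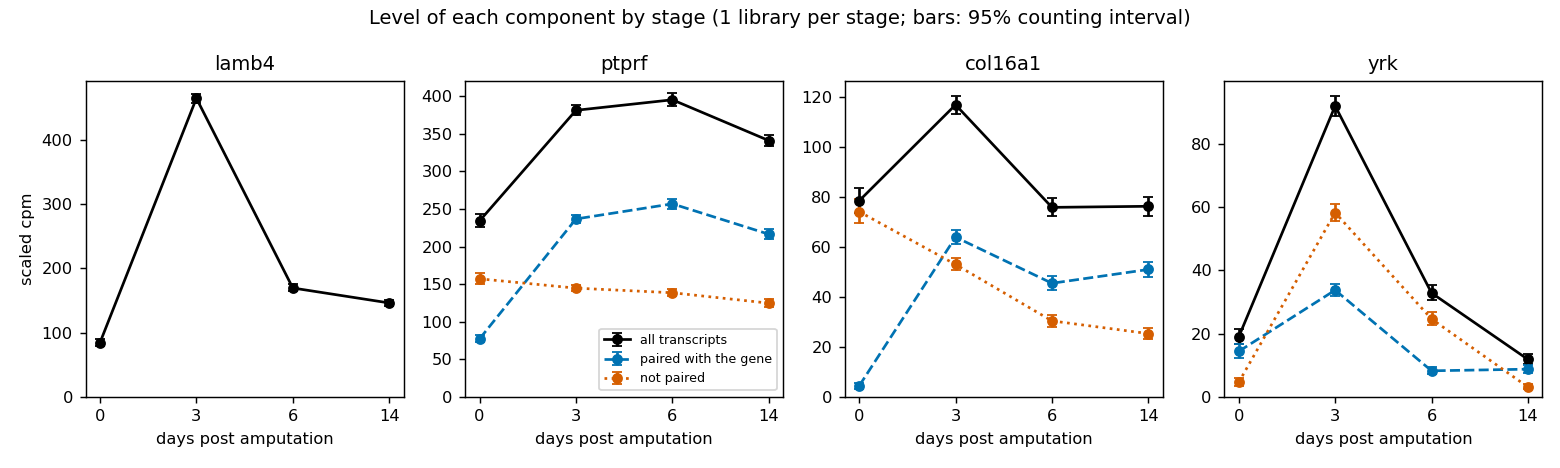
Level of each component in scaled cpm (vertical axes, starting at 0) by stage (horizontal axes, stages evenly spaced), with 1 library per stage and bars for the 95% counting interval. Black lines sum all transcripts, blue dashed lines those that the supplementary tables pair with the gene and orange dotted lines the others. *lamb4* reached 465 cpm at 3 dpa, and the 2 parts of the *col16a1* component crossed, at 4.33 and 74.1 cpm at 0 dpa and 50.9 and 25.3 cpm at 14 dpa.

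The *lamb4* component had 1051, 16165, 3732 and 3045 reads at 0, 3, 6 and 14 dpa, which are 84.3, 465, 169 and 146 cpm. The 3 dpa library stood far above the other 3, and 0 dpa was the lowest. The log2 ratio to 0 dpa was 2.46 at 3 dpa (2.37 to 2.55), 1.01 at 6 dpa (0.91 to 1.11) and 0.79 at 14 dpa (0.69 to 0.90). The level at 6 dpa was lower than at 3 dpa by a log2 ratio of -1.46 (-1.51 to -1.40), a call shared by 8.67% of all components, while 14 dpa over 6 dpa gave -0.21 (-0.28 to -0.14), within the cut-off.

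Both *lamb4* transcripts were higher at 3 dpa, to very unequal extents. The transcript seq1 had 20, 8921, 347 and 14 reads at 0, 3, 6 and 14 dpa. It was nearly confined to the 3 and 6 dpa libraries, with a log2 ratio to 0 dpa of 7.32 at 3 dpa (6.69 to 8.03) and 3.29 at 6 dpa (2.65 to 4.03). At 14 dpa it stood at 0.672 cpm, against 1.60 cpm at 0 dpa, with an interval of -2.35 to -0.20 that crossed the cut-off. The transcript seq2 had 1031, 7244, 3385 and 3031 reads and was called higher than at 0 dpa at every later stage, with log2 ratios of 1.33, 0.89 and 0.81 at 3, 6 and 14 dpa.

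The mix of the 2 *lamb4* transcripts changed at 3 dpa, and by 14 dpa seq1 held less of it than at 0 dpa. The share of the component's reads on seq1 was 1.90% at 0 dpa (1.17% to 2.92%), 55.2% at 3 dpa (54.4% to 56.0%), 9.30% at 6 dpa (8.38% to 10.3%) and 0.460% at 14 dpa (0.252% to 0.770%). A share within a library does not depend on the scaling between libraries. As a measure for any component, the percent of reads that lay on other transcripts than at the other stage was taken, over components with at least 2 transcripts and 200 reads in both libraries. It was 53.3% for *lamb4* between 3 and 0 dpa, beside a median of 13.7% over 2964 components, of which 4.05% reached as high a value. Between 14 and 0 dpa it was 1.44%, beside a median of 15.98% over 2796 components. The reads were assigned to transcripts by an estimate that divides those fitting several, and shares of reads are not shares of molecules because transcript lengths were not used here. Both transcripts are paired with *lamb4*, but whether they come from the same axolotl gene was not tested.

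**Figure D2:**
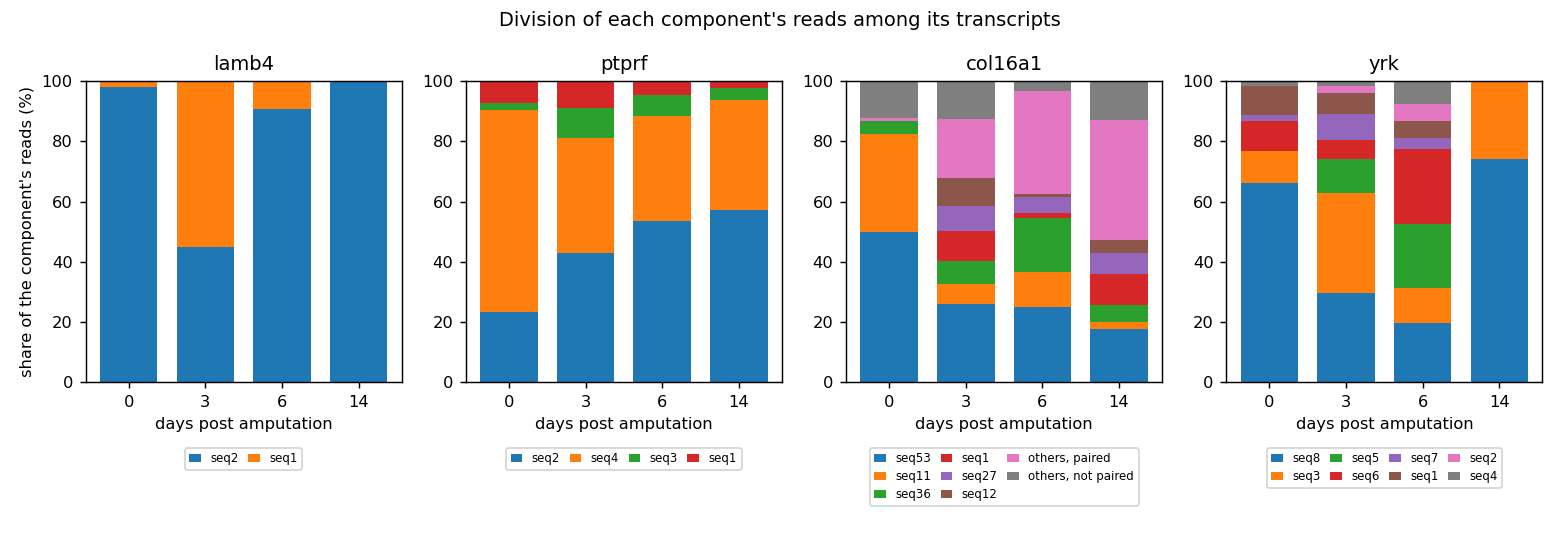
Share of each component's reads (vertical axes, 0 to 100%) that fell on each of its transcripts at 0, 3, 6 and 14 dpa, with 1 library per stage. For *col16a1* the 6 transcripts with the most reads are shown singly and the remaining 32 in 2 groups, by whether the tables pair them with the gene. The *lamb4* transcript seq1 held 55.2% of the reads at 3 dpa and 1.90% at 0 dpa, and at 14 dpa the *yrk* component was left with 2 transcripts.

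The *ptprf* component changed less and was highest at 6 dpa. It had 2921, 13268, 8713 and 7111 reads at 0, 3, 6 and 14 dpa, or 234, 381, 395 and 341 cpm. The 3 and 6 dpa libraries were nearly level, with a log2 ratio of 0.05 at 6 dpa over 3 dpa (0.01 to 0.09), and 0 dpa was the lowest. The ratio to 0 dpa was 0.70 at 3 dpa (0.65 to 0.76), 0.76 at 6 dpa (0.70 to 0.82) and 0.54 at 14 dpa (0.48 to 0.61). The call at 3 dpa was lost with scaling by the median of ratios (0.63, interval 0.57 to 0.69) and with entries of 0 counted as 1 read (0.59), and 14 dpa passed the cut-off with total reads (0.999) and the upper quartile (0.80).

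The 4 *ptprf* transcripts followed 3 courses. The transcript seq2 had 682, 5707, 4660 and 4068 reads and was higher than at 0 dpa at every later stage, with log2 ratios of 1.59 (1.47 to 1.70), 1.95 (1.84 to 2.07) and 1.84 (1.72 to 1.95) at 3, 6 and 14 dpa. The transcript seq3 had 71, 1342, 605 and 271 reads and was also higher throughout, most at 3 dpa (2.76, 2.42 to 3.13). The transcript seq1 had 209, 1187, 396 and 173 reads, and was called higher than at 0 dpa at 3 dpa (1.03, 0.81 to 1.25), within the cut-off at 6 dpa (0.10) and called lower at 14 dpa (-1.01, -1.31 to -0.72).

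The transcript seq4, with 1959, 5032, 3052 and 2599 reads, stayed within the cut-off at all 3 later stages, at log2 ratios of -0.12, -0.18 and -0.33. It is the only *ptprf* transcript that the supplementary tables, as held, did not pair with the zebrafish gene *ptprfb*. It carried 67.1% of the component's reads at 0 dpa (65.3% to 68.8%), 37.9% at 3 dpa, 35.03% at 6 dpa and 36.5% at 14 dpa, while seq2 carried 23.3%, 43.0%, 53.5% and 57.2%. The 3 paired transcripts summed to 77.1, 237, 257 and 216 cpm, and their ratio to 0 dpa was 1.74 at 6 dpa (1.64 to 1.84). Without seq2, the transcript with the most reads, the component's ratio was 0.28, 0.035 and -0.30 at 3, 6 and 14 dpa.

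The *col16a1* component, summed, was level at 3 of the 4 stages. It had 978, 4064, 1670 and 1589 reads at 0, 3, 6 and 14 dpa, or 78.4, 117, 75.8 and 76.2 cpm. Counting error does not separate the 6 and 14 dpa libraries from 0 dpa, with log2 ratios of -0.05 at 6 dpa (-0.16 to 0.07) and -0.04 at 14 dpa (-0.16 to 0.08). With total reads these ratios were 0.45 and 0.42, and with the upper quartile 0.089 and 0.22, so that their sign depends on the scaling. At 3 dpa the ratio was 0.58 (0.47 to 0.68), and with total reads it was 0.78 and past the cut-off.

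Beneath this level sum, most reads lay on other transcripts at the later stages than at 0 dpa. Of the 38 *col16a1* transcripts, 31 had an entry of 0 at 0 dpa, which in this table means 0 or 1 read, and 27 of these had reads at 3 dpa. Only 3 transcripts had reads at every stage, 5 had reads at 3 dpa alone and 3 at 14 dpa alone. Of all 90099 transcripts of the table, 75505 had reads at 0 dpa and 84737 at 3 dpa. The 0 dpa library was the smallest and the 3 dpa library the largest, at 15249786 and 36931886 reads. How far this difference set the counts of transcripts with few reads was not tested. The percent of reads on other transcripts was 62.5% between 3 and 0 dpa, a value reached by 2.02% of the 2964 components, and 72.4% between 14 and 0 dpa, reached by 3.00% of 2796. The *col16a1* component has many more transcripts than most, and how far that sets these values was not tested.

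The transcripts that led at 0 dpa were lower later. The transcript seq53 had 488, 1053, 416 and 282 reads, or 39.1, 30.3, 18.9 and 13.5 cpm, with log2 ratios to 0 dpa of -0.37 (-0.53 to -0.21), -1.05 (-1.24 to -0.86) and -1.53 (-1.75 to -1.32). The transcript seq11 had 317, 277, 197 and 38 reads and was lower at each stage, by -1.67, -1.51 and -3.80. At 14 dpa seq53 and seq11 held 17.7% and 2.39% of the component's reads, against 49.9% and 32.4% at 0 dpa. Neither was paired with a gene in the tables as held.

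Other *col16a1* transcripts with many reads appeared only after amputation. The transcript seq1 had entries of 0, 406, 28 and 163 reads, which put it at least 48.5-fold higher at 3 dpa, 5.28-fold higher at 6 dpa and 32.5-fold higher at 14 dpa than the floor of 3 reads set for an entry of 0 at 0 dpa. The transcript seq27 had 0, 344, 88 and 109 reads and was at least 41.1-fold higher at 3 dpa. The transcript seq12 had 0, 372, 19 and 70 reads and was at least 44.5-fold higher at 3 dpa. Both seq1 and seq12 were low at 6 dpa between higher values at 3 and 14 dpa. For seq1, 6 dpa over 3 dpa was -3.19 (-3.81 to -2.65) and 14 dpa over 6 dpa was 2.62 (2.04 to 3.26), and for seq12 they were -3.62 and 1.95. The transcript seq36, which had reads at every stage (42, 301, 297 and 88), was higher at 3 dpa (1.36, 0.89 to 1.86) and 6 dpa (1.999), and not called at 14 dpa (0.33, -0.22 to 0.89).

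The 23 transcripts paired with *col16a1* summed to 54, 2222, 1001 and 1062 reads, or 4.33, 63.9, 45.4 and 50.9 cpm. All but 2 of the 23, seq28 and seq36, had an entry of 0 at 0 dpa. The other 15 transcripts summed to 924, 1842, 669 and 527 reads, or 74.1, 52.9, 30.4 and 25.3 cpm. The paired sum was higher than at 0 dpa at every later stage, with log2 ratios of 3.88 (3.49 to 4.30), 3.39 (3.00 to 3.81) and 3.56 (3.16 to 3.98) at 3, 6 and 14 dpa, and the other sum was at -0.48, -1.29 and -1.55. All of these ratios share the 0 dpa library on which the listing rests, and they are given as a description of the listed and unlisted transcripts.

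The component carries other gene names beside *col16a1*, and whether it mixes genes was not tested. The tables pair seq50, with 0, 0, 4 and 6 reads, with the fibrillar collagen gene *col1a1a*, and seq39, with 0, 3, 5 and 6 reads, with *col7a1*, the collagen of anchoring fibrils. Collagens share a repeated triplet motif, and reads of different collagen genes may have been divided among these transcripts. These 2 carried too few reads to alter the sums, and 13 further transcripts carry no name in the tables as held. None of these 13 had a log2 ratio above 0 at 6 dpa over 0 dpa. A list of transcripts higher at 6 dpa would not hold them, whatever their gene.

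The *yrk* component had 236, 3198, 723 and 246 reads at 0, 3, 6 and 14 dpa, or 18.9, 91.9, 32.8 and 11.8 cpm. The 3 dpa library was the highest and 14 dpa the lowest. With total reads, counting error did not separate 14 dpa from 0 dpa, at a log2 ratio of -0.23 (-0.49 to 0.04). The log2 ratio to 0 dpa was 2.28 at 3 dpa (2.09 to 2.48), 0.79 at 6 dpa (0.58 to 1.01) and -0.68 at 14 dpa (-0.94 to -0.42). The interval at 6 dpa began at the cut-off itself, and the call was lost with the median of ratios (0.76) and with entries of 0 counted as 1 read (0.75). The level was lower at each step after 3 dpa, by -1.49 at 6 over 3 dpa (-1.60 to -1.37) and -1.47 at 14 over 6 dpa (-1.69 to -1.26), a call made for 8.25% of all components at the second step.

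All 8 *yrk* transcripts were higher at 3 dpa than at 0 dpa, and 6 of them had an entry of 0 at 14 dpa. Of all 90099 transcripts of the table, 77974 had reads at 14 dpa. The transcript seq3 had 25, 1061, 85 and 64 reads and a log2 ratio of 3.92 at 3 dpa (3.36 to 4.56). The transcript seq5 had 0, 359, 154 and 0 reads, which is at least 42.9-fold higher at 3 dpa and 29.1-fold higher at 6 dpa than at 0 dpa, and at least 48.6-fold lower at 14 dpa than at 6 dpa. The transcript seq6 had 24, 194, 180 and 0 reads and was at least 56.8-fold lower at 14 dpa than at 6 dpa, the largest such bound of the 8.

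The transcripts seq1, seq2, seq4 and seq7 had 23, 0, 4 and 4 reads at 0 dpa, 220, 80, 50 and 281 at 3 dpa, 39, 42, 55 and 26 at 6 dpa, and entries of 0 at 14 dpa. Their ratio at 3 dpa was 1.78 for seq1 (1.16 to 2.47), 2.14 for seq4 (0.72 to 4.09) and 4.63 for seq7 (3.28 to 6.54), and seq2 was at least 9.56-fold higher. At 6 dpa only seq2 and seq4 of these were still called higher than at 0 dpa.

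The transcript seq8 had 156, 953, 142 and 182 reads and took a course of its own. It was higher than at 0 dpa at 3 dpa (1.13, 0.89 to 1.38), lower at 6 dpa (-0.96, -1.29 to -0.62) and not called at 14 dpa (-0.52, -0.84 to -0.20). It held 66.1% of the component's reads at 0 dpa (59.7% to 72.1%), 29.8% at 3 dpa, 19.6% at 6 dpa and 74.0% at 14 dpa (68.0% to 79.4%). The 2 transcripts paired with *yrk*, seq1 and seq8, summed to 14.4, 33.7, 8.21 and 8.73 cpm, and the 6 others to 4.57, 58.2, 24.6 and 3.07 cpm. At 6 dpa the paired sum was at -0.80 (-1.11 to -0.50) and the others at 2.43 (2.03 to 2.85). The paired transcripts are those listed as lower. Between 14 and 6 dpa, 68.6% of the reads lay on other transcripts, a value reached by 1.24% of 3701 components. This was the largest value among the comparisons made. It was 43.4% between 3 and 0 dpa and 50.8% between 6 and 0 dpa, reached by 8.13% and 7.24% of components. Between 6 and 3 dpa it was 38.3% and between 14 and 0 dpa 23.3%, reached by 9.52% and 36.8%. How far the number of transcripts in the component sets these values was not tested.

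**Figure D3:**
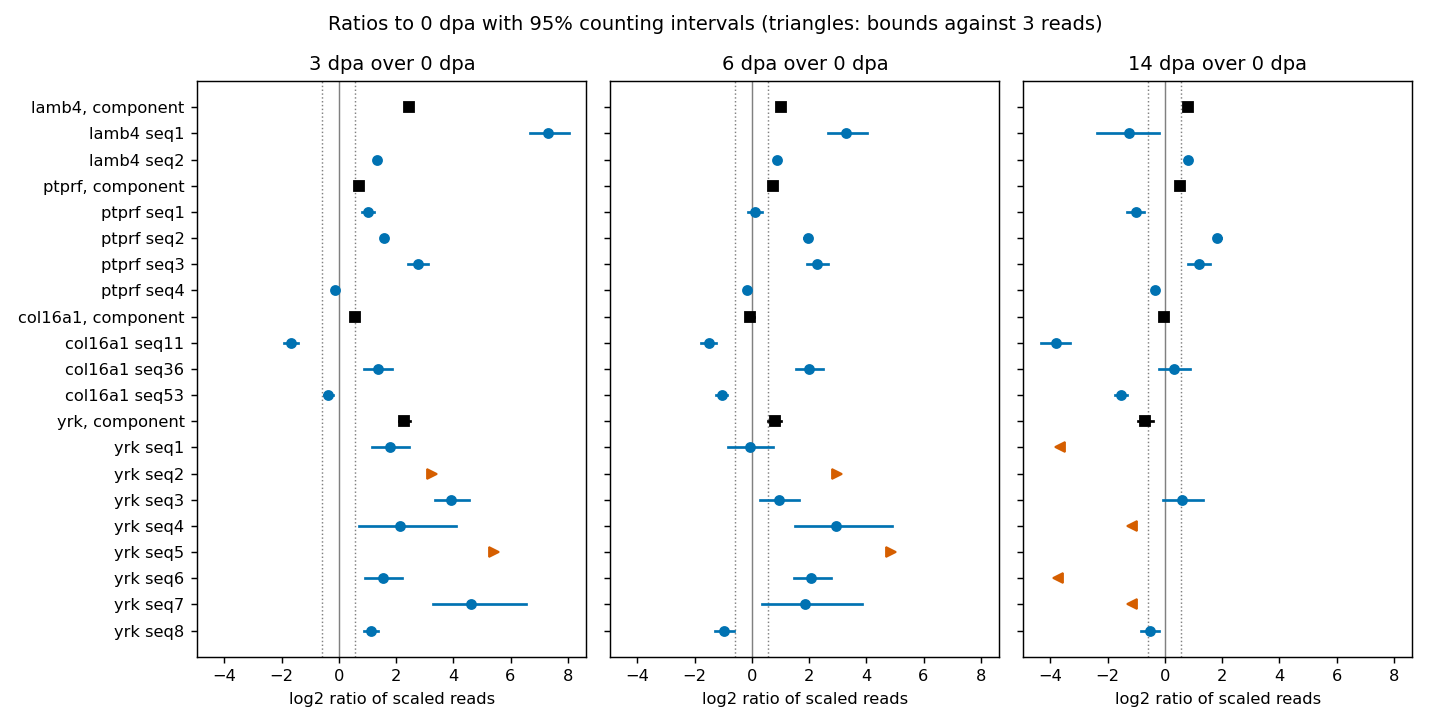
Log2 ratio of scaled reads to 0 dpa (horizontal axes) at 3, 6 and 14 dpa for the 4 components (black squares), every transcript of *lamb4*, *ptprf* and *yrk*, and the *col16a1* transcripts with reads at every stage (blue points), with 95% counting intervals as bars. Orange triangles are bounds for transcripts with an entry of 0 in 1 of the 2 libraries, the dotted lines mark the cut-off of 0.58 on either side, and a transcript with an entry of 0 in both libraries has no mark. The *lamb4* transcript seq1 lies farthest to the right at 3 dpa, at 7.32.

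Counted over all 52 transcripts, 43 had at least 10 reads at 3 and 0 dpa together, of which 31 were called higher at 3 dpa (14.8% of all 78124 transcripts compared were) and 4 lower (14.9% of all). At 6 dpa over 0 dpa, 21 of 33 were called higher (13% of all 69280) and 5 lower (16.9%). With total reads in place of TMM these were 25 higher and 2 lower, while 64.6% of the calls over all transcripts were then higher, against 43.5% with TMM. At 14 dpa over 0 dpa, 21 of 34 were called higher (14.1% of all 67386) and 7 lower (18.9%). Of the higher calls, 20, 17 and 17 at 3, 6 and 14 dpa were of transcripts paired with their gene, which were listed by direction at 6 dpa. The remaining transcripts gave 11 higher and 3 lower of 17 at 3 dpa. They gave 4 higher and 4 lower of 11 at 6 dpa, and 4 higher and 5 lower of 12 at 14 dpa. A transcript that is absent at 0 dpa can reach 10 reads only by being higher later, and an entry of 0 in 1 of the 2 libraries applied to 26 of the 43, 15 of the 33 and 21 of the 34. With such transcripts at their bound, the median log2 ratio was 1.69, 1.92 and 1.52 at 3, 6 and 14 dpa. Over all transcripts compared the medians were 0.17, 0.06 and 0.05, but these were taken without bounds and are an unlike measure. With at least 10 reads required in every library, 11 transcripts remained, of which the calls at 3, 6 and 14 dpa were higher for 8, 5 and 3 and lower for 1, 3 and 3. Of the 32718 transcripts of the whole table that pass this filter, 5121, 4022 and 4529 were higher and 4271, 4388 and 4703 lower at those stages.

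At both steps after 3 dpa the transcripts were more often called lower than higher, less so at 14 dpa over 6 dpa. At 6 dpa over 3 dpa, 18 of 45 were called lower (12.4% of all) and 4 higher (7.97% of all). At 14 dpa over 6 dpa, 14 of 42 were called lower (11.3% of all) and 10 higher (7.45% of all). All 10 higher calls at this step were *col16a1* transcripts, while 6 of the 8 *yrk* transcripts were called lower.

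The genes that the supplementary tables pair with components, and that code for matrix or adhesion proteins, give the setting of these 4. Of 25 such genes, 14 were higher at 3 dpa than at 0 dpa and 4 lower (11.6% and 14.1% of all components were), with a median log2 ratio of 0.91 beside 0.13 over all components. At 6 dpa 10 were higher and 6 lower (9.57% and 15.4% of all), and at 14 dpa 4 were higher and 9 lower (10.8% and 17.3% of all). Each was listed through single transcripts by their direction at 6 dpa, while the values here sum whole components, which can go the other way, so the counts describe a selected list. Of the 25, 15 had their highest level at 3 dpa (29.2% of the components with at least 100 reads had), as had the *lamb4*, *col16a1* and *yrk* components. *col1a1a* and *col1a2* are among these 15 although they had fewer than 100 reads, nearly all at 3 dpa, so the background is not fully alike. *col1a1a* is also among the 14 called higher at 3 dpa, and it could reach 10 reads only through that library.

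Among the glycoproteins, *tnc* (tenascin C, an anti-adhesive matrix protein of developing and healing tissue) had 1941, 97504, 35041 and 20493 reads, with log2 ratios to 0 dpa of 4.17, 3.35 and 2.66 at 3, 6 and 14 dpa. *fn1a* (fibronectin, a ligand of integrins) was at 2.44 and 1.62 and then lower, at -0.96. *emilin1b* and *fbn2b*, both of elastic fibres, were higher at all 3 stages, and *ntn1a*, a laminin-related guidance protein, was lower at all 3 (-0.83, -1.02 and -1.06). *lamb4* shared the stage order 3, 6, 14 and 0 dpa, from high to low, with *tnc*, *emilin1b* and *fbn2b*.

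Among the collagens, *col7a1* was higher at 3 dpa (2.33) and 6 dpa (2.15) and level at 14 dpa (-0.02), and *col12a1b*, a fibril-associated collagen of the same broad class as collagen XVI, was higher at 3 dpa (1.12) and 6 dpa (0.87) and lower at 14 dpa (-0.64). The *col16a1* component passed the cut-off at none of these stages with TMM scaling. *col5a3b* was not called at 3 dpa (-0.59) and was lower at 6 dpa (-0.66) and 14 dpa (-1.17). The component paired with *col1a1a* had 0, 31, 2 and 0 reads and that with *col1a2* 0, 17, 0 and 0 reads.

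The integrin genes gave the receptors of this matrix. *itga5*, a fibronectin receptor chain, was higher at 3 dpa (2.04) and 6 dpa (1.25), and *itgb5* at 3 dpa (0.91) and 6 dpa (0.94). *itgb4*, the beta chain of the hemidesmosome that binds laminin, was level at 3 dpa (0.10) and lower at 6 dpa (-1.51) and 14 dpa (-1.39). *itga3b*, a chain of another laminin receptor, was higher at 3 dpa (0.86) and not called at 6 dpa (-0.63) or 14 dpa (-0.18). *tln1* (talin, which links integrins to actin) was higher at 3 dpa (1.29), and *ptk2.1* (focal adhesion kinase, a partner of Src family kinases) was not called at 3 dpa (0.49).

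Of the liprin, phosphatase and Src family genes set beside *ptprf* and *yrk*, only *ptprja* was called against 0 dpa. The liprin beta genes *PPFIBP1 (1 of 2)* and *ppfibp2b* passed the cut-off at no stage, with ratios between 0.31 and 0.35 for the first and between -0.30 and -0.11 for the second. *ptprja*, another receptor tyrosine phosphatase, was lower at 3, 6 and 14 dpa (-1.48, -1.12 and -1.69). *yes1*, a Src family kinase, had 190, 600, 406 and 508 reads, or 15.2, 17.2, 18.4 and 24.4 cpm, and was called at no stage. Its log2 ratios to 0 dpa were 0.18, 0.27 and 0.68 at 3, 6 and 14 dpa, the last with an interval of 0.43 to 0.93 that crossed the cut-off. Of the cadherins, *cdh11* was higher at all 3 stages (0.83, 1.41 and 1.76) and *cdh13* lower (-2.20, -3.48 and -4.79).

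**Figure D4:**
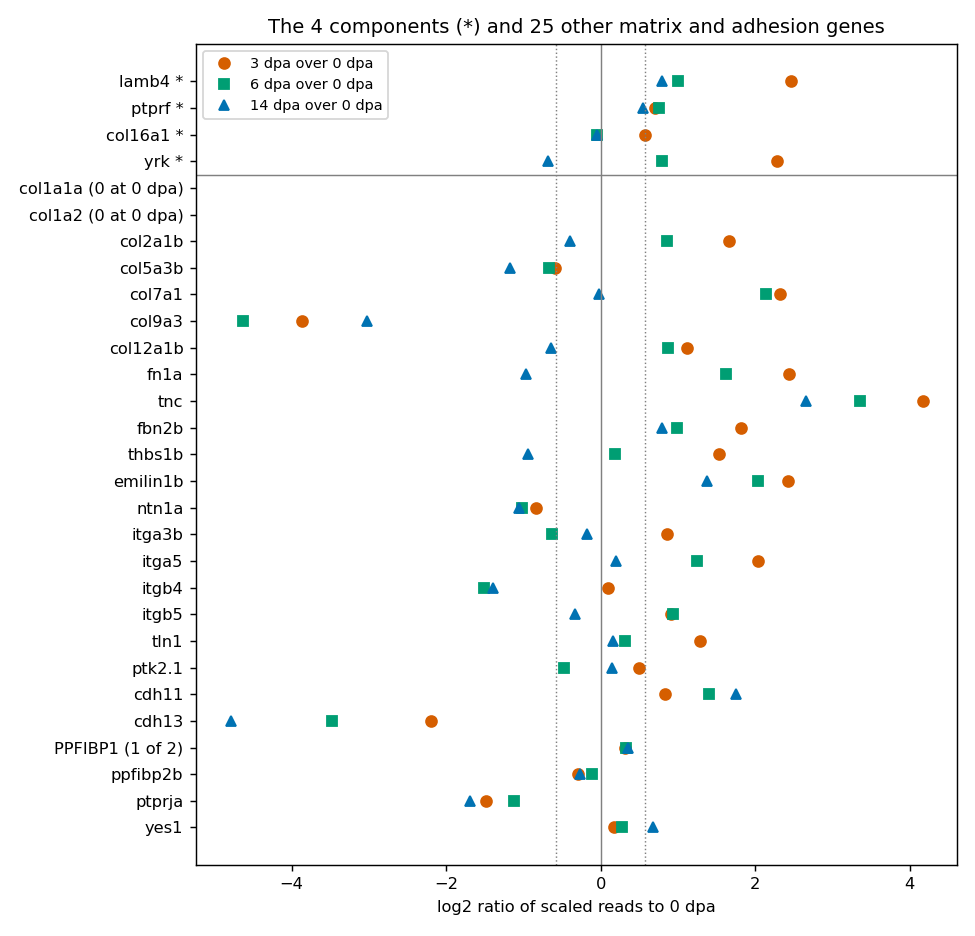
Log2 ratio of scaled reads to 0 dpa (horizontal axis) at 3 dpa (circles), 6 dpa (squares) and 14 dpa (triangles) for the 4 components, marked with an asterisk above the line, and 25 other matrix and adhesion genes below it. Dotted lines mark the cut-off of 0.58, and genes with an entry of 0 at 0 dpa carry no points. *lamb4* and *yrk* at 3 dpa (2.46 and 2.28) lie near *fn1a* (2.44) and *col7a1* (2.33).

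Likeness of pattern was measured as the root mean square difference of the log2 ratios to 0 dpa at 3, 6 and 14 dpa, over 2116 other components with a named gene and at least 100 reads. Nearest to *yrk* was *inhbab* (an activin beta chain, 60, 824, 199 and 61 reads) at 0.07, followed by *htra1b* (a secreted serine protease) at 0.26. Nearest to *ptprf* were *ift172* at 0.05 and *spred1*, an inhibitor of Ras signaling, at 0.06. Nearest to *col16a1* were *SH3D21* at 0.05 and *kdelr2b*, a receptor that returns proteins to the endoplasmic reticulum, at 0.08. Nearest to *lamb4* was *tpbga* at 0.25, which had only 4 reads at 0 dpa, and then *armc1l* at 0.28 and *rgs5a* at 0.29. The third for *ptprf* was *idh1* (0.07), for *col16a1* *brd2a* (0.09) and for *yrk* *SBNO2 (2 of 2)* (0.26). Between the 4 components themselves the difference ran between 0.58, for *ptprf* and *col16a1*, and 1.34, for *lamb4* and *col16a1*. These are likenesses over 3 ratios that share the 0 dpa library.

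The miRNAs paired with the genes were measured in the small RNA libraries, scaled separately. Their TMM factors were 1.39, 1.07, 0.84 and 0.80 at 0, 3, 6 and 14 dpa, and no other scaling was tried for them. The intervals leave this choice out, and the sign of a small ratio, such as that of miR-24 at 3 dpa, may depend on it. miR-181b had 1221, 1133, 2250 and 4002 reads at 0, 3, 6 and 14 dpa, with log2 ratios to 0 dpa of 0.80 (0.68 to 0.91), 1.64 (1.54 to 1.74) and 1.95 (1.85 to 2.04). miR-181c had 519, 422, 1342 and 2162 reads and ratios of 0.61, 2.13 and 2.29. For miR-181b the study's own sequencing analysis gave the same ratio of 1.64 at 6 dpa in axolotl, while its other accounts differ. Its quantitative PCR listed miR-181b as higher in zebrafish and bichir only, and its discussion describes a significant decrease in regenerating axolotl forelimbs. miR-181c was higher by that PCR in axolotl as well. Both miRNAs were above 0 dpa at 3 dpa, where all 8 *yrk* transcripts were higher, and highest at 14 dpa, where 6 of those transcripts had an entry of 0. Of these 6 only seq1 is paired with *yrk*. The paired sum stood at 8.21 cpm at 6 dpa and 8.73 cpm at 14 dpa, a log2 ratio of 0.09 (-0.22 to 0.39).

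miR-2184 had 39, 38, 4 and 8 reads. Its ratio was 0.86 at 3 dpa (0.18 to 1.55), -2.50 at 6 dpa (-4.47 to -1.05) and -2.03 at 14 dpa (-3.36 to -0.93). These few reads put it lower at 6 and 14 dpa, when the *lamb4* and *ptprf* components stood above 0 dpa. They did not put it lower at 3 dpa, when *lamb4* was highest. Opposite directions at 6 dpa were a condition of all the pairs described here, and the ratios at 3 and 14 dpa share the 0 dpa library. miR-204 had 795, 194, 91 and 70 reads, with ratios of -1.13 (-1.36 to -0.90), -2.36 (-2.70 to -2.05) and -3.27 (-3.64 to -2.92). miR-24 had 6201, 3678, 2204 and 3149 reads, with ratios of 0.15 (0.09 to 0.21), -0.73 (-0.80 to -0.66) and -0.74 (-0.81 to -0.68). miR-133a had 35701, 1666, 625 and 161 reads, with ratios of -3.52 (-3.59 to -3.45), -5.07 (-5.19 to -4.96) and -7.56 (-7.79 to -7.33), and was lower at each later stage. The *col16a1* component was level at 6 and 14 dpa with TMM scaling. Within it, the paired transcripts, which were listed by direction, summed to 3.39 and 3.56 on the log2 scale at those stages. The other transcripts of the component were at -1.29 and -1.55. The summed skeletal muscle markers given above, also listed by direction, were lower at the same stages, and their part in the miR-133a ratios was not tested. The study's own sequencing analysis listed miR-2184, miR-204, miR-24 and miR-133a as lower in axolotl at 6 dpa. Its quantitative PCR listed miR-2184 and miR-24 as lower in axolotl, and did not list miR-204 or miR-133a as lower there. Whether the predicted binding sites lie on any of the axolotl transcripts described here was not tested.

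**Figure D5:**
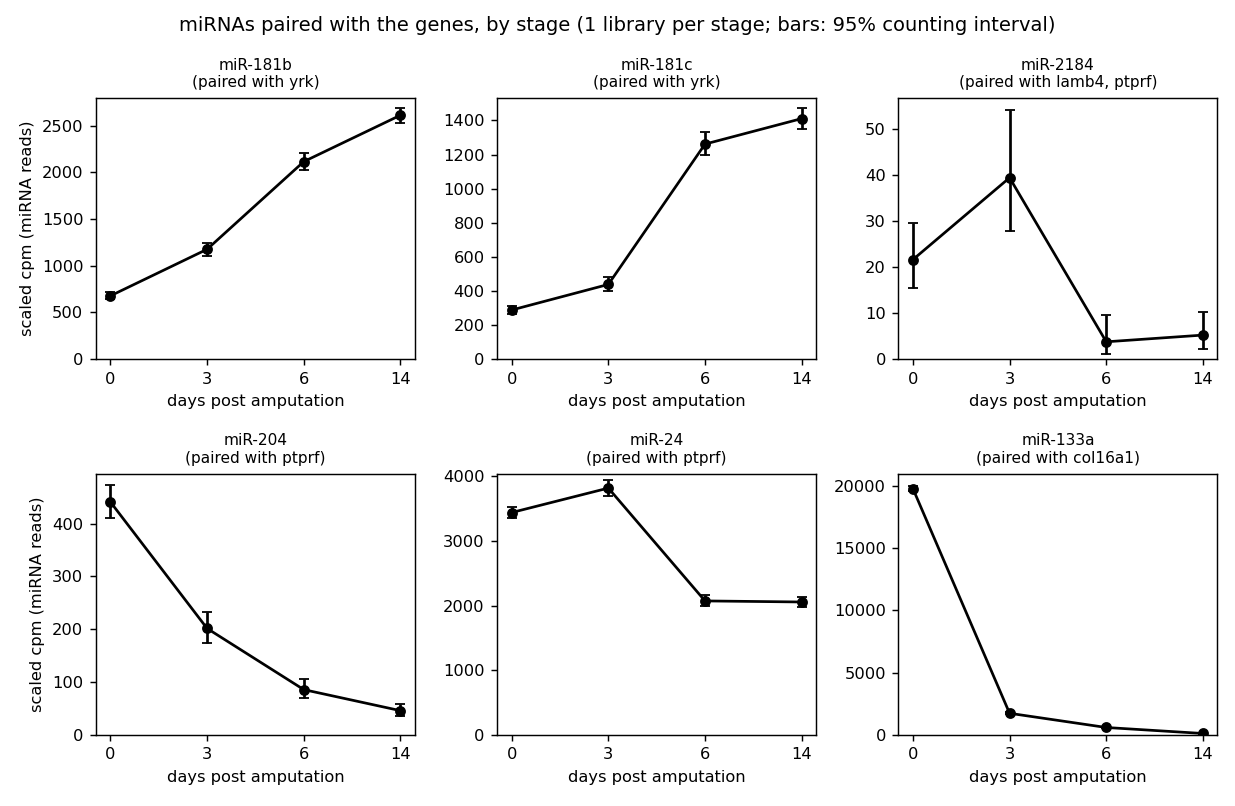
Level of the 6 miRNAs in scaled cpm of miRNA reads (vertical axes, starting at 0) at 0, 3, 6 and 14 dpa (stages evenly spaced), with 1 library per stage and bars for the 95% counting interval. The *yrk*-paired miR-181b and miR-181c were highest at 14 dpa, at 2611 and 1411 cpm, and miR-204 and miR-133a were lowest there, at 45.7 and 105 cpm.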

How the data were processed

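Per the study's methods, mRNA reads were cleaned with Trimmomatic, Trinity built a transcript assembly from them without a genome, and RSEM estimated the reads of each transcript. The versions are not given in the sources used here. The deposited mRNA values are log2 of whole read numbers, although the table is named for log2 cpm, and 2 raised to each value was taken as reads (largest relative deviation from a whole number 3.47e-09). An entry of 0 stands for 0 or 1 read and was counted as 0, and 3200 lines that repeat another were dropped. The deposited small RNA values are likewise the authors' log2 reads, of 143 miRNAs, and differ in that 7 cells hold a spreadsheet error mark. The marked cells were read as 0 reads and an entry of 0 as 1 read.

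TMM scaling of library sizes took 0 dpa for its reference, trimming 30% of log ratios and 5% of mean levels at each end, and a prior count of 0.125 was added before log2 ratios were taken. Intervals are exact Clopper-Pearson intervals at 95%, which cover counting error only. Ratios against an entry of 0 are bounds at 3 reads. Python 3.11.15, NumPy 2.4.6, pandas 2.3.3, SciPy 1.17.1 and matplotlib 3.10.9 were used, and the ratios were tested on simulated data. Gene names come from supplementary tables held in part. The RefSeq annotation of the axolotl was used only to see that it lists LAMB4, PTPRF and COL16A1 and no gene named YRK, and the transcripts were not matched to it. The named transcripts were every transcript of *lamb4*, *ptprf* and *yrk*, and of *col16a1* the 6 with the most reads, those paired with another gene and seq36, taken for the gene earlier. The count of *col16a1* paired transcripts at 0 also names seq28, chosen after its values were seen, and miR-133a was added during the analysis. The members, the gene and marker lists and the comparisons were chosen with earlier results of these data known. The measure of transcript mix was added during the analysis.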

Additional observations from a re-analysis of the deposited data

How the results depend on the processing

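With 1 library per stage, the values hold for these pools, and the counting intervals understate the error. No paired analysis was possible because each stage has 1 library. Prior counts of 0.5 and 1 moved none of the 12 component ratios past its interval.

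Scaling shifts every ratio of a comparison alike. Total reads added 0.20, 0.50 and 0.46 at 3, 6 and 14 dpa over 0 dpa, which gave 2.67, 1.51 and 1.25 for *lamb4*, 0.91, 1.26 and 0.999 for *ptprf*, 0.78, 0.45 and 0.42 for *col16a1*, and 2.48, 1.29 and -0.23 for *yrk*. The 3 dpa reference gave 0.85 for *ptprf* at 6 dpa, and the median of ratios 0.63 for *ptprf* at 3 dpa. The upper quartile gave, at 6 and 14 dpa, 1.15 and 1.05 for *lamb4*, 0.89 and 0.80 for *ptprf* and 0.089 and 0.22 for *col16a1*. Entries of 0 counted as 1 read gave 2.35 for *lamb4*, 0.59 for *ptprf* and 0.42 for *col16a1* at 3 dpa.

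Without its most abundant transcript, a component had ratios at 3, 6 and 14 dpa of 7.32, 3.29 and -1.25 for *lamb4*, 0.28, 0.035 and -0.30 for *ptprf*, 1.14, 0.53 and 0.67 for *col16a1*, and 3.33, 2.04 and -1.06 for *yrk*. The *lamb4* sign at 14 dpa is reversed there because seq1 alone is left. With only paired transcripts the ratios were 1.62, 1.74 and 1.49 for *ptprf*, 3.88, 3.39 and 3.56 for *col16a1*, and 1.23 at 3 dpa and -0.80 at 6 dpa for *yrk*, where the sign is reversed.

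With total reads 2 of the 52 transcripts, in place of 5, were lower at 6 dpa, and 15863 and 15074 of all transcripts, in place of 8980 and 9524, were higher at 6 and 14 dpa. With at least 10 reads in every library, 8, 5 and 3 of the 52 were higher and 1, 3 and 3 lower at 3, 6 and 14 dpa, and of all transcripts 5121, 4022 and 4529 were higher and 4271, 4388 and 4703 lower. With the log2 ratio itself past the cut-off, 29299, 23185 and 22327 of all transcripts were higher and 22360, 21362 and 22209 lower.

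The share of called transcripts that were higher, over all transcripts, was 43.5% at 6 dpa and 42.8% at 14 dpa with TMM, and 64.6% and 60.2% with total reads. With the upper quartile it was 53.5% at 14 dpa.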
